A study of Mus musculus with 8 samples.

Results

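The collagen and laminin genes were taken as the protein-coding genes of the GENCODE M1 annotation of mm9 (NCBIM37) whose symbol starts with Col, a number, the letter a and a number, or with Lama, Lamb or Lamc and a number. The rule found 55 of 22367 protein-coding genes. Of these, 43 encode collagen chains and 11 encode laminin chains. The remaining gene, Col4a3bp, matches by symbol alone: its product carries ceramide between membranes and is no collagen, and it is reported apart wherever its values matter. The spans of the genes run from 7.10 kb in Col10a1 to 636 kb in Lama2, and 50 of the 55 are at least 20 kb long. In 8 of them the span overlaps another protein-coding gene, and a peak in the overlap counts for both.

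5-hydroxymethylcytosine (5hmC) was mapped by GLIB-Seq, in which a glucose is attached to 5hmC, oxidized with periodate and coupled to biotin, so that the fragments that carry it can be pulled down and sequenced. There was 1 library for each of 6 conditions: E14 mouse embryonic stem cells (ESCs), primary mouse embryonic fibroblasts (MEFs) of C57BL/6 mice, brain and liver of C57BL/6 mice of 8 weeks, and E14 ESCs transfected with a control hairpin (shGFP, directed at GFP) or with one directed at Suz12 (shSuz12), a subunit of Polycomb repressive complex 2. The labels give embryonic day 11 for the MEFs and the methods a later day. The transfected ESCs were selected with puromycin, the methods name more than 1 hairpin against Suz12, and the labels do not say which was sequenced. Nor is it given whether a tissue came from 1 animal or from a pool. The level of Suz12 itself cannot be read from 5hmC peaks, and the RNA-Seq libraries of the hairpin cells were not analysed here. With 1 library per condition there was no spread between replicates, and no difference between libraries could be tested.

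Each deposited list gives the start and end of the peaks that MACS called in a library and a score per peak, taken as -log10 of the p-value multiplied by 10. The lists hold between 130409 (liver) and 217026 (MEFs) peaks, and the number of reads behind them is unknown. The scores begin at 80 for both ESCs and liver but at 30 for MEFs and for brain. They begin at 50.02 for shGFP and at 30.34 for shSuz12. The lists other than those of ESCs and liver thus reach down to weaker peaks, whatever their length. Values at a common score of at least 80 are given beside some of the main ones, and values without a stated score are as deposited. Peaks on chromosome X were rare in every list, from 22 in brain to 757 in MEFs. In whole tissue, strong 5hmC in a few cells and weak 5hmC in many cells cannot be told apart.

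Collagens are secreted proteins of the extracellular matrix whose chains wind around each other in a long helix. The fibrillar collagens (types I, II, III, V, XI, XXIV and XXVII) form the cables of skin, bone, tendon and cartilage and are typical products of fibroblasts and related connective tissue cells. Type IV collagen forms the sheet of basement membranes, together with the laminins, which are each built from an alpha, a beta and a gamma chain and are made by most epithelia as well as by the early embryo. 5hmC is made from 5-methylcytosine by the Tet enzymes. It is found along the bodies of many genes and at some promoters.

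Some of these genes had a peak next to the transcription start site (TSS) in MEFs alone or in ESCs alone of the 4 cell types. DNA under a few such peaks is shown as examples. In each stretch of 200 bases, taken from NCBIM37 in the direction of transcription and outside annotated exons, CpG dinucleotides, the sites at which 5hmC mostly occurs, are in capitals. The stretches shown first come from MEF peaks of the 3 genes that had a peak within 1 kb of the TSS in MEFs and not in ESCs, brain or liver. They lie in an intron of Col6a3, an alpha chain of the beaded type VI collagen (chr1:92739826-92740025, minus strand, 504 to 703 bases after the TSS), before Col10a1, the collagen of hypertrophic cartilage (chr10:34109248-34109447, plus strand, within the span of Nt5dc1), and before Lamb3, the beta chain of an epithelial laminin (chr1:195127718-195127917, plus strand). They hold 1, 2 and 3 CpGs, respectively.
Col6a3: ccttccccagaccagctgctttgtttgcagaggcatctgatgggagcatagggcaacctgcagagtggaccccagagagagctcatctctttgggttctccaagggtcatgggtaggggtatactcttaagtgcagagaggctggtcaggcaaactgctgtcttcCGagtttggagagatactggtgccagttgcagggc
Col10a1: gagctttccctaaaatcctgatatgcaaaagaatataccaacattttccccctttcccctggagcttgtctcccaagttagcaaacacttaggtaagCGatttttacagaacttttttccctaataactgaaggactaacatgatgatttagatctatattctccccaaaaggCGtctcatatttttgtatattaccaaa
Lamb3: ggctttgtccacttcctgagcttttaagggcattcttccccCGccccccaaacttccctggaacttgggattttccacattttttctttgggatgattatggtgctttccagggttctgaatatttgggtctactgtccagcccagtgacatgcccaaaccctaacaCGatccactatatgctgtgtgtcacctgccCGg
The other stretches, chosen after the values had been seen, come from peaks that were near the TSS in ESCs and not in MEFs, brain or liver. One lies in an intron of Col1a1, the main chain of type I collagen (chr11:94797966-94798165, plus strand, 428 to 627 bases after the TSS), and holds 5 CpGs. The other lies just before Col4a3 and within the span of Col4a4 (chr1:82582926-82583125, plus strand), which are transcribed away from each other and encode type IV chains of the kidney filter, and holds 1 CpG.
Col1a1: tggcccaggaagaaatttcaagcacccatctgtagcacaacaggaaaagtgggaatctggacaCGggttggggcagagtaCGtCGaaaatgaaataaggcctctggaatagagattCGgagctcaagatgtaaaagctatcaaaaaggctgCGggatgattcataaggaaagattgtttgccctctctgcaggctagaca
Col4a3: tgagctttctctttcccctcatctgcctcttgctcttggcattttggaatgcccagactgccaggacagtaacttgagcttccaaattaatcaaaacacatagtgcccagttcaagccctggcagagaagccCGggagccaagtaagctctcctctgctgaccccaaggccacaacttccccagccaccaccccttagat

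In summed spans, the collagen and laminin genes carried more 5hmC than protein-coding genes as a whole in MEFs, and less in the other 5 libraries. Long genes weigh most in such sums. Peaks covered 16.5% of the merged spans of these genes (6824 kb in all) in MEFs, against 11.8% of all protein-coding spans, a ratio of 1.39. In ESCs the shares were 9.40% and 11.6% (ratio 0.811), in brain 12.3% and 13.9% (0.884), and in liver 5.82% and 12.8% (0.455). In shGFP they were 5.38% and 7.41% (0.727) and in shSuz12 3.89% and 5.23% (0.743). Liver therefore stood lowest and MEFs highest relative to their own protein-coding background. With peaks of a score of at least 80 alone, the ratio was 1.47 in MEFs, 0.811 in ESCs, 0.865 in brain and 0.455 in liver, but the share of the spans covered was then 8.95% in MEFs and 9.40% in ESCs. The excess of MEFs over ESCs was thus one of proportion to the rest of the list, and not of covered bases, at the common score. Averaged gene by gene, the first of 10 equal parts of the gene was covered to 21.0% in ESCs and the last to 18.7%. Over protein-coding genes of at least 20 kb these were 13.0% and 20.3%, so ESCs were not below background by every measure.

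**Figure D1:**
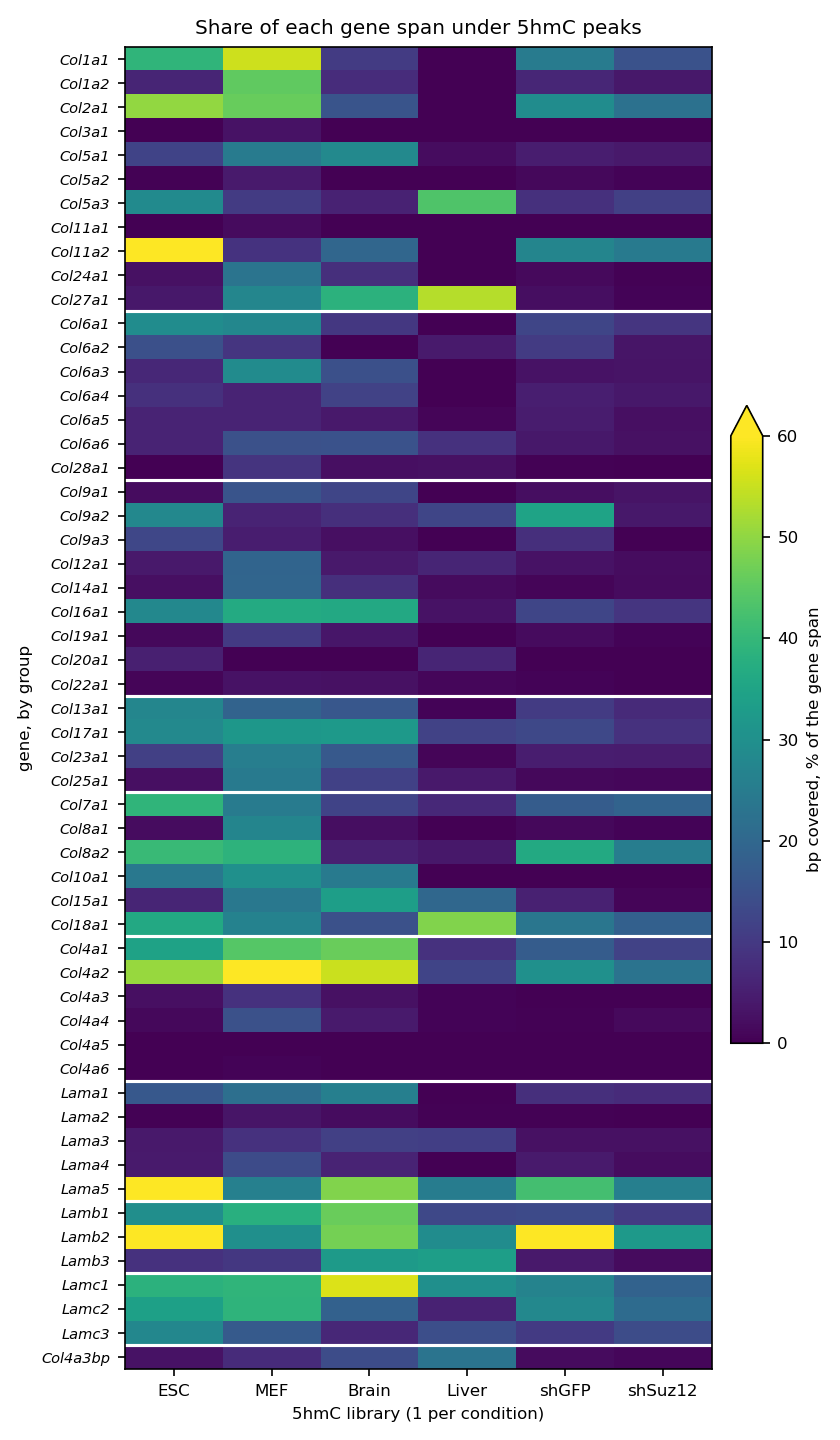
Share of each gene span under 5hmC peaks (colour, % of the span, up to 60%) in the 6 libraries (columns, 1 per condition) for the 55 genes (rows), with white lines between the groups from fibrillar collagens at the top to laminins and Col4a3bp at the bottom. MEFs are bright in most collagens, liver is dark in most collagens and brightest in Col27a1, Col18a1 and Col5a3, and Col4a5 and Col4a6 on chromosome X are dark throughout.

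For a comparison gene by gene, bp covered in each span were scaled to the same total over protein-coding spans and a log2 ratio was taken after adding 500 bp to each side. A gene is called higher or lower at a log2 ratio of 1 or more, or of -1 or less, which is a threshold of size and not a test. Against ESCs, 24 of the 55 genes were called higher in MEFs, where 12.1% of all protein-coding genes were, and 7 were called lower, where 28.1% were. Against brain, 25 were called higher (12.8% of all genes) and 1, Lamb3, lower (16.5%). Against liver, 39 were called higher (19.4%) and 4 lower (26.5%). The median log2 ratio of the 55 genes was 0.36 over ESCs, 0.84 over brain and 2.40 over liver, and that of all protein-coding genes was 0 each time. A gene with no peak in either library has a ratio of 0, and 61.0% of protein-coding genes had a peak in MEFs. For spans of at least 20 kb, 85.3% of which had one, the medians of protein-coding genes were -0.03, 0 and 0. Those of the long collagen and laminin genes were 0.98, 0.87 and 2.39. These comparisons share the MEF library. Long genes are called more often, but among the 50 genes with spans of at least 20 kb, 24, 23 and 36 were called higher over ESCs, brain and liver, against 20.3%, 15.7% and 30.4% of the 9718 protein-coding genes of that length.

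MEFs had the highest scaled coverage of the 4 cell types in 29 of the 55 genes, compared with 12.7% of all protein-coding genes, and in 27 of the 50 long ones, compared with 19.4%. ESCs were highest in 13 (27.7% of all genes), brain in 5 (9.13%) and liver in 7 (27.4%), and Col4a5 had no peak in any library. The collagen and laminin chains gave different shares. Among the 43 collagen chains MEFs were highest in 26, and their summed spans were covered to 17.5% in MEFs, 8.65% in ESCs, 11.4% in brain and 5.03% in liver. Among the 11 laminin chains MEFs were highest in 3, and the shares were 13.7% in MEFs, 12.3% in ESCs, 15.2% in brain and 7.35% in liver. At a common score of at least 80, MEFs were highest in 23 collagen chains and 4 laminin chains.

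**Figure D2:**
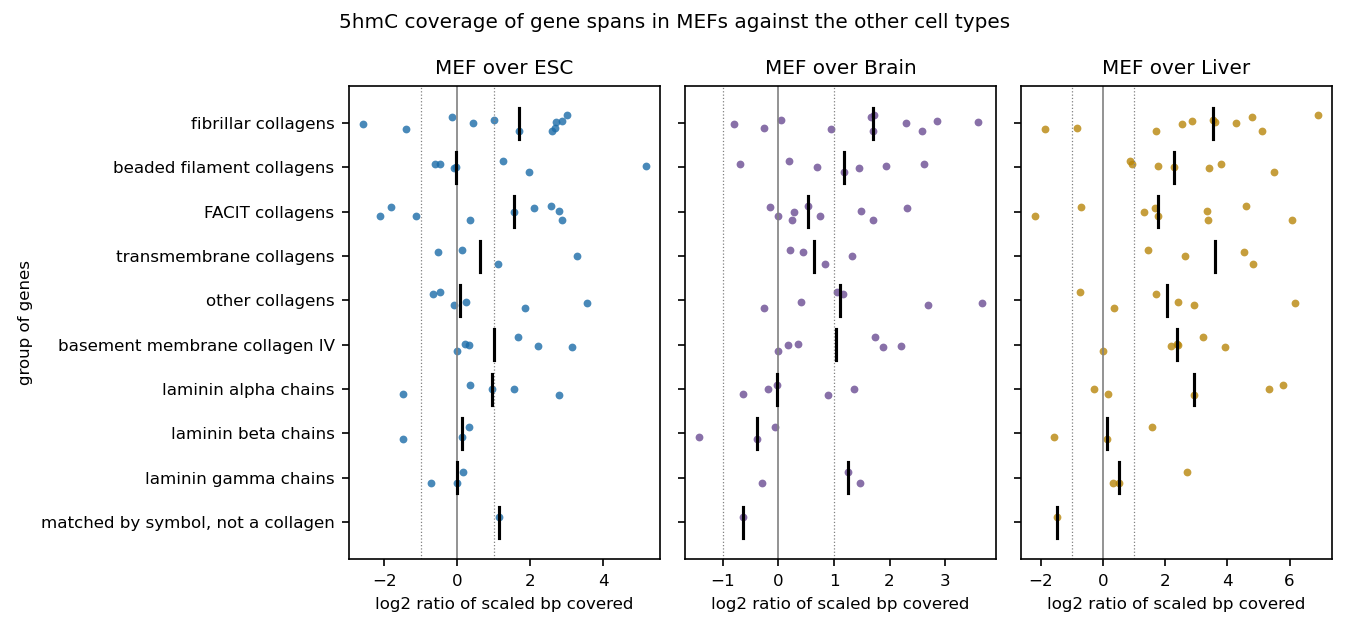
Log2 ratio of scaled bp covered, MEFs over ESCs, brain and liver (panels, x axes of different range), for each gene (points, spread vertically for clarity) in its group (rows). Black bars are group medians, the solid line is equal coverage and dotted lines mark the thresholds of 1 and -1. The fibrillar collagens have medians of 1.70, 1.70 and 3.55, and the laminin beta and gamma chains lie near or below 0 over ESCs.

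Among the 11 fibrillar collagens MEFs were the highest cell type in 7 (12.7% of all protein-coding genes). Of these 11 genes, 6 were called higher and 2 lower in MEFs than in ESCs (12.1% and 28.1% of all protein-coding genes). Against brain 7 were higher and none lower (12.8% and 16.5%), and against liver 9 higher and 1 lower (19.4% and 26.5%). Col1a2, which encodes the other chain of type I collagen (chr6:4454814-4491543), had 16643 bp under peaks in MEFs, 2308 bp in ESCs, 2773 bp in brain and none in liver, with 2325 bp in shGFP and 1453 bp in shSuz12. Its 17 MEF peaks ran along nearly the whole gene, whereas ESCs had a single peak behind the TSS. The log2 ratio of MEFs was 2.58 over ESCs and 2.58 over brain. Col1a1 (chr11:94797538-94814356) was covered in MEFs over 9306 bp, or 55.3% of its span, in ESCs over 6586 bp, in brain over 1761 bp and in liver nowhere, and in shGFP over 4190 bp and in shSuz12 over 2560 bp. Its ratio over ESCs was 0.44, as ESCs too covered 39.2% of this short gene.

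The genes of the minor fibrils varied more. Col24a1, a fibrillar collagen of developing bone (chr3:144955436-145214975), had 59690 bp covered in MEFs, 6817 bp in ESCs, 20927 bp in brain, none in liver, 3816 bp in shGFP and 1109 bp in shSuz12. Col5a2, a chain of the type V collagen that starts fibrils, had 5566 bp in MEFs, 413 bp in ESCs, none in brain or liver, 1588 bp in shGFP and 783 bp in shSuz12. In both the MEF value stood above every other library. In its partner Col5a1, peaks covered 43121 bp in brain, 38148 bp in MEFs and 18460 bp in ESCs, with 3030 bp in liver, 7230 bp in shGFP and 6226 bp in shSuz12. After scaling, MEFs were highest, with a ratio of 0.05 over brain and 3.55 over liver, and at a score of at least 80 peaks covered 23598 bp in MEFs and 16987 bp in brain. Col3a1, the type III collagen of skin and vessels, had 1 peak of 1129 bp within its span in MEFs, with a score under 80, and none in any other library, although it is among the main collagens of fibroblasts.

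Col5a3, another type V chain, went the other way, with peaks over 19607 bp in liver, 12882 bp in ESCs, 4648 bp in MEFs and 2558 bp in brain, and over 3739 bp in shGFP and 5085 bp in shSuz12. Its ratios were -1.41 over ESCs, 0.94 over brain and -1.86 over liver. Col27a1, a cartilage collagen that is named here after its values were seen, also had its highest coverage in liver, at 64522 bp or 53.3% of the span, against 46646 bp in brain, 33249 bp in MEFs and 4706 bp in ESCs. Liver was thus not low in all fibrillar collagens, though it listed no peak in the spans of Col1a1, Col1a2, Col2a1, Col3a1, Col5a2, Col11a1, Col11a2 and Col24a1.

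**Figure D3:**
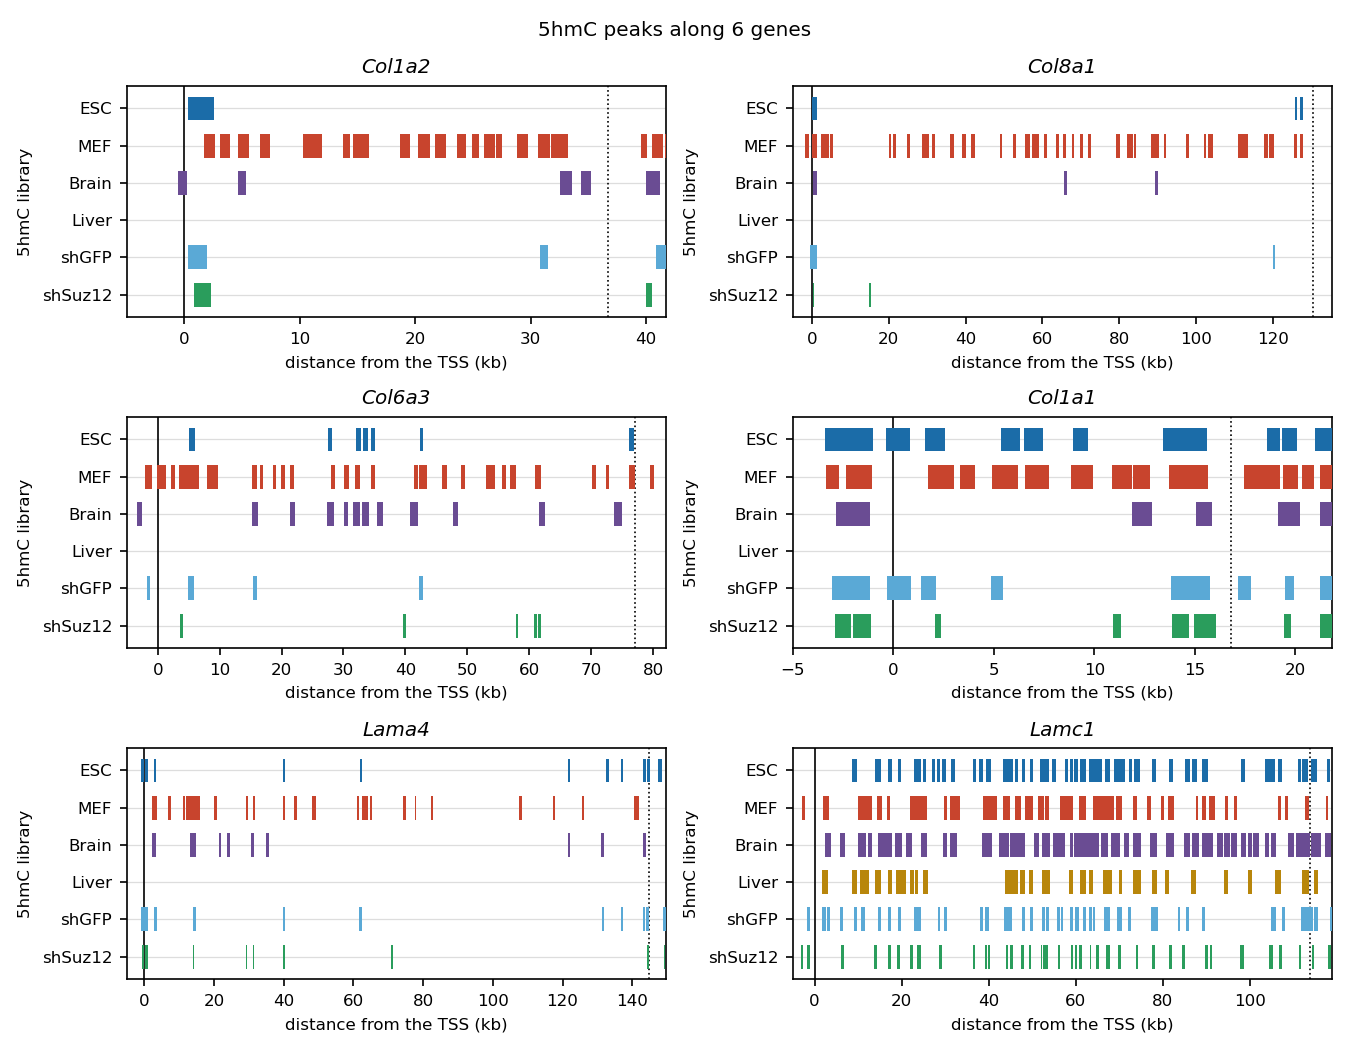
Peaks (bars) in the 6 libraries (rows) along Col1a2, Col8a1, Col6a3, Col1a1, Lama4 and Lamc1, by distance from the TSS in kb (x axes of different length) in the direction of transcription, with the TSS as a solid line and the gene's end as a dotted line. MEF peaks run along Col1a2, Col8a1 and Col6a3, where liver has none, while Lamc1 is covered in all 6 libraries. Within 1 kb of the TSS, Col1a1 has peaks of ESCs and shGFP only, and Lama4 of ESCs, shGFP and shSuz12 only.

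Among the beaded filament collagens, of type VI and the related Col28a1, the chains of one protein differed. Col6a3 (chr1:92663435-92740529) had 22349 bp covered in MEFs, 5228 bp in ESCs, 11236 bp in brain, none in liver, 2233 bp in shGFP and 2471 bp in shSuz12, with ratios of 1.97 over ESCs and 1.18 over brain. Col6a1 had 4819 bp in MEFs and 5085 bp in ESCs, 1704 bp in brain, none in liver, 2197 bp in shGFP and 1604 bp in shSuz12. Col6a2 had 2579 bp in MEFs, 4111 bp in ESCs, none in brain, 1217 bp in liver, 2899 bp in shGFP and 937 bp in shSuz12. These 3 chains assemble with each other, but MEFs were the highest cell type only in Col6a3. At a score of at least 80, peaks covered 121 bp of Col6a1 in MEFs and 5085 bp in ESCs, a log2 ratio of -2.35. In Col6a2 these were 0 and 4111 bp (-2.41), and in Col6a3 10737 and 5228 bp (1.79). In the group of 7, as deposited, 3 were called higher and none lower over ESCs (12.1% and 28.1% of all protein-coding genes). Over brain 4 were higher and none lower (12.8% and 16.5%).

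The largest mean MEF ratio over the other 3 cell types, 4.47, belonged to Col8a1, a short-chain collagen of vessel walls and the cornea (chr16:57624371-57754850). Peaks covered 35565 bp in MEFs, 2501 bp in ESCs, 2757 bp in brain, none in liver, 1687 bp in shGFP and 791 bp in shSuz12. At a score of at least 80 they still covered 17595 bp in MEFs, 2501 bp in ESCs and none in brain. Next came Col24a1 (3.88), Col19a1 (3.55), Col1a2 (3.42) and Col5a2 (3.31). Col19a1, one of the collagens that attach to fibrils (FACIT collagens), had 33005 bp in MEFs, 3968 bp in ESCs, 11505 bp in brain, none in liver, 5606 bp in shGFP and 2242 bp in shSuz12. Because liver listed no peak in these 5 spans, the part of the mean that comes from liver depends on the 500 bp added.

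At the other end stood Col20a1 (-1.43), Lamb3 (-0.96), Col9a2 (-0.89), Col5a3 (-0.77) and Lama5 (-0.66). Col20a1, a FACIT collagen, had 1652 bp in ESCs and 1896 bp in liver and no peak in MEFs, brain, shGFP or shSuz12. Col9a2, a cartilage FACIT chain, had 937 bp in MEFs, 4474 bp in ESCs, 1291 bp in brain, 1993 bp in liver, 5545 bp in shGFP and 606 bp in shSuz12. Accordingly the 9 FACIT genes split, with 5 called higher and 3 lower in MEFs than in ESCs (12.1% and 28.1% of all protein-coding genes). None was called lower than in brain (16.5%). Of the 4 transmembrane collagens, 2 were called higher over ESCs (12.1% of all genes), 1 over brain (12.8%) and all 4 over liver (19.4%).

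Of the 6 type IV collagen genes of basement membranes, 3 were called higher and none lower in MEFs than in ESCs (12.1% and 28.1% of all genes). Against brain 3 were higher and none lower (12.8% and 16.5%), and against liver 5 were higher (19.4%). Col4a1 and Col4a2, the common type IV chains, start head to head with spans that overlap, and share their promoter. Col4a2 (chr8:11312805-11449287) was the most densely covered gene of the set in MEFs, with 81868 bp under peaks, and had 69132 bp in ESCs, 75192 bp in brain, 16678 bp in liver, 40983 bp in shGFP and 31081 bp in shSuz12. Col4a1 had 50533 bp in MEFs, 39423 bp in ESCs, 52831 bp in brain, 9897 bp in liver, 19860 bp in shGFP and 13458 bp in shSuz12. Ratios over ESCs and brain lay between 0.17 and 0.35 in both genes, and those over liver were 2.40 and 2.37. Col4a3 and Col4a4, named after their values were seen, had larger ratios of 1.67 and 3.13 over ESCs and of 1.73 and 1.88 over brain. Col4a5 had no peak and Col4a6 had 1802 bp in MEFs alone, but both are on chromosome X, where the lists hold few peaks.

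Lama1, Lamb1 and Lamc1 encode the chains of the first laminin of the embryo. Lama1 had 27366 bp in MEFs, 20761 bp in ESCs, 32570 bp in brain, none in liver, 10064 bp in shGFP and 9362 bp in shSuz12. Lamb1 had 24450 bp in MEFs, 19106 bp in ESCs, 29833 bp in brain, 8402 bp in liver, 8634 bp in shGFP and 6779 bp in shSuz12. Lamc1 (chr1:155066052-155179916) had 44830 bp in MEFs, 43838 bp in ESCs, 64618 bp in brain, 33938 bp in liver, 30632 bp in shGFP and 21592 bp in shSuz12. None was called in either direction between MEFs and ESCs or brain, and Lama1 differed from the other 2 chains in having no liver peak.

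Lama5 and Lamb3, chains of epithelial laminins, were among the 5 genes with the lowest mean MEF ratio. Lama5 was covered over 36728 bp, or 74.2% of its span, in ESCs, and over 12947 bp in MEFs, 24081 bp in brain, 12428 bp in liver, 20850 bp in shGFP and 12835 bp in shSuz12. Lamb3 had 14058 bp in liver and 13753 bp in brain against 4049 bp in MEFs and 3602 bp in ESCs, and the hairpin libraries had 1742 bp (shGFP) and 731 bp (shSuz12). Over all 11 laminin chains, 2 were called higher and 2 lower in MEFs than in ESCs (12.1% and 28.1% of all genes). Against brain 3 were higher and 1 lower (12.8% and 16.5%), and against liver 5 higher and 1 lower (19.4% and 26.5%). The medians were 0.16, -0.05 and 0.51. Col4a3bp, the gene that is no collagen, was highest in liver, with 22591 bp against 13539 bp in brain, 7215 bp in MEFs and 2919 bp in ESCs.

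Near the TSS the order of the libraries was another one. Of the 55 genes, 32 had a peak within 1 kb of the TSS in ESCs, where 31.9% of all protein-coding genes had one, and 33 in shGFP (27.1%). In MEFs 25 had one (30.1%), in brain 20 (20%), in liver 10 (29.4%) and in shSuz12 22 (21.4%). At a score of at least 80 the counts were 32 in ESCs (31.9% of all protein-coding genes), 27 in shGFP (19.0%) and 19 in MEFs (12.0%). They were 4 in brain (5.45%), 10 in liver (29.4%) and 6 in shSuz12 (5.07%). In the lists as deposited, genes with a peak at the TSS were most numerous in ESCs and shGFP and coverage of the spans was largest in MEFs, but at the common score ESCs had the larger coverage of the spans as well. Of the ESC genes, 13 had no such peak in MEFs, and 6 MEF genes had none in ESCs. In 29 genes both ESCs and shGFP had one, which are separate cultures of the same line. For these overlaps the shares over all protein-coding genes were not computed, and the lists begin at different scores. Whether they set the 55 genes apart therefore cannot be told.

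**Figure D4:**
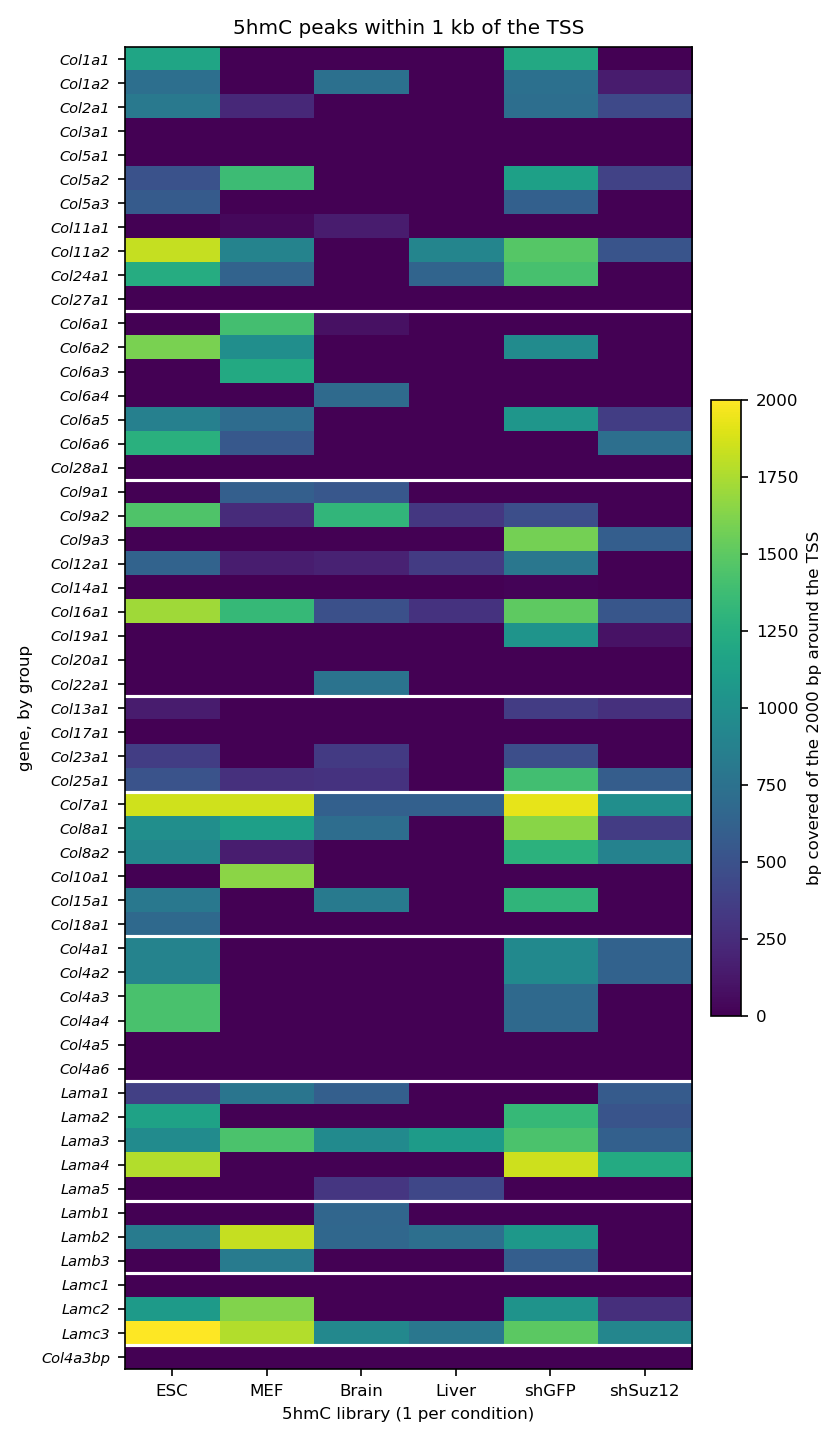
Bp under 5hmC peaks within the 2000 bp around the TSS (colour) in the 6 libraries (columns) for the 55 genes (rows, grouped as in the plot of the spans). ESCs and shGFP are brightest, with 32 and 33 genes above 0, and Col4a1 and Col4a2, and Col4a3 and Col4a4, show the same values because they share their windows.

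The TSS itself lay under a peak in 12 of the 55 genes in ESCs (11.8% of all protein-coding genes) and in 22 in shGFP (11.2%). It did so in 7 in MEFs (6.87%), 3 in brain (4.46%), 2 in liver (5.38%) and 7 in shSuz12 (5.83%). This count was added after the windows had been seen. At a score of at least 80 it was 12 in ESCs (11.8% of all protein-coding genes), 18 in shGFP (8.71%) and 7 in MEFs (3.25%). It was 2 in liver (5.38%), 1 in shSuz12 (1.83%) and none in brain (1.35%). The windows of the 32 genes with an ESC peak held a median of 63 CpGs, and those of the 23 without one 30, while over all protein-coding genes the medians were 60 and 61. The part of CpG content in these counts was not tested.

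In 3 genes MEFs alone among the 4 cell types had a peak within 1 kb of the TSS, a share close to the 5.83% of all protein-coding genes. In Col6a3 the peak of score 217 ran from -117 to 1270 bp of the TSS, and peaks covered 1213 bp of the window in MEFs and nothing in the other 5 libraries. In Col10a1 they covered 1651 bp in MEFs and nothing elsewhere, and the peak over the TSS had a score of 156. In Lamb3 they covered 830 bp in MEFs and, outside the 4 cell types, 597 bp in shGFP. The bases shown above lie in these peaks.

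In 10 genes ESCs alone had such a peak (7.62% of all protein-coding genes), namely Col1a1, Col4a1, Col4a2, Col4a3, Col4a4, Col5a3, Col13a1, Col18a1, Lama2 and Lama4. The type IV pairs share 1 window each, so these are 8 promoters. The Col1a1 peak had a score of 607 and ran from -343 to 835 bp of the TSS, and peaks covered 1179 bp of the window in ESCs, 1208 bp in shGFP and nothing in MEFs, brain, liver or shSuz12. MEFs thus covered most of the Col1a1 span and left out its start. At Col4a3 and Col4a4 the covered part was 1426 bp in ESCs, 687 bp in shGFP and 0 in the other 4 libraries. At Col4a1 and Col4a2 it was 948 bp in shGFP, 898 bp in ESCs and 632 bp in shSuz12. At Lama4, an alpha chain of vessel laminins, it was 1849, 1769 and 1226 bp, respectively.

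Knockdown of Suz12 was compared with shGFP after scaling, since the whole list shrank from 121 to 83.5 Mb covered. The median log2 ratio of the 55 spans was 0.00, as over all genes, and without scaling it was -0.44. In shSuz12, 7 genes were called lower (8.64% of all protein-coding genes) and 2 higher (8.85%). At a score of at least 80, which 17.0% of the shSuz12 peaks and 56.0% of the shGFP peaks reach, 18 were called lower (25.1% of all genes) and 6 higher (8.03%). The 7, named after their values were seen, were Col9a3 (-2.26), Col9a2 (-2.15), Col15a1 (-1.78), Col28a1 (-1.35), Col24a1 (-1.06), Col22a1 (-1.04) and Col27a1 (-1.02). All of them had 5849 bp or less covered in shGFP. Of the genes called higher, Col4a4 had 436 bp in shGFP and 2201 bp in shSuz12, and Col14a1, a FACIT collagen of skin and tendon, 1945 and 3688 bp.

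As deposited, the largest falls in covered bp were those of densely covered basement membrane genes. Col4a2 went from 40983 to 31081 bp, Lamc1 from 30632 to 21592 bp and Lama5 from 20850 to 12835 bp, but relative to the shrinking of the list their log2 ratios were 0.10, -0.00 and -0.19. The largest rise, from 6037 to 8262 bp, was that of Lamc3, a gamma chain of laminin, with a ratio of 0.90, followed by Col4a4 and Col14a1.

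At the TSS, 13 of the 33 genes with an shGFP peak had none in shSuz12, which is 39.4% of them. In 2 genes shSuz12 had one and shGFP had none, a count whose share over all genes was not computed. Over all protein-coding genes the loss came to 44.1% of those with an shGFP peak and to 12% of all genes, and the 13 genes are 23.6% of the 55. More of the 55 genes than of all genes had an shGFP peak to lose. With peaks of a score of at least 80 alone, 27 genes had one in shGFP (19.0% of all protein-coding genes) and 6 in shSuz12 (5.07%). The 13 genes were Col1a1, Col4a3, Col4a4, Col5a3, Col6a2, Col9a2, Col12a1, Col14a1, Col15a1, Col23a1, Col24a1, Lamb2 and Lamb3. Col1a1 lost 1208 bp of its window and Col24a1 lost 1416 bp. Lama4 and Col4a1, whose ESC peaks at the TSS MEFs lacked, kept 1226 and 632 bp in shSuz12.

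A larger share of the MEF peaks stood alone in these genes than in protein-coding genes as a whole. Of 1133 MEF peaks, 500 (44.1%) met no peak of ESCs, brain or liver, compared with 28.2% of the MEF peaks in protein-coding genes, and the other 633 met at least 1. Among MEF peaks of a score of at least 80, set against the other lists uncut, 129 of 438 stood alone (29.5%, compared with 15.9%). In ESCs 19.6% of 565 peaks were alone (compared with 21.5%), in brain 140 of 660 (21.2% and 22.0%) and in liver 71 of 315 (22.5% and 24.3%), each close to its background. Liver peaks met 15.8% of the MEF peaks in these genes and 39.1% of those in protein-coding genes, while brain peaks met 39.6% and 48.2%. The MEF peaks that stood alone had a median of 1.19 CpGs per 100 bp and those shared with another cell type 1.60. Peaks alone in ESCs, brain and liver also had fewer CpGs than shared ones, with 1.65 against 1.84, 1.37 against 1.58 and 1.09 against 1.47.

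Exons were covered more densely than introns in all 6 libraries. In the 55 genes peaks covered 23.0% of exonic and 16.1% of intronic bases in MEFs, a ratio of 1.44 (1.18 over all protein-coding genes), and 23.5% and 8.48% in ESCs, a ratio of 2.77 (2.56). The exonic share was thus about the same in both, and the intronic share of MEFs was the higher one, in lists that begin at different scores. Over all protein-coding genes the exonic shares were 13.7% in MEFs and 26.5% in ESCs, and the intronic shares 11.7% and 10.3%. Exonic and intronic shares at a common score were not computed. In liver the shares of the 55 genes were 11.7% and 5.43%. The MEF coverage was also placed towards the start of the genes. Averaged over the 55 genes it was 28.0% of the first of 10 equal parts of the gene and 17.6% of the last, compared with 13.8% and 12.4% over protein-coding genes of at least 20 kb. In ESCs it went from 21.0% to 18.7% (13.0% to 20.3% over protein-coding genes) and in shGFP from 17.2% to 12.5% (9.07% to 12.7%), so the start was covered more than the end in these libraries too. In brain it went from 13.5% to 21.0%, and over protein-coding genes from 11.6% to 20.1%. The end was also covered more than the start in liver, at 6.65% and 11.6% (15.7% and 20.3% over protein-coding genes). The same held in shSuz12, unlike shGFP, at 7.63% and 9.68% (5.82% and 8.83%).

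**Figure D5:**
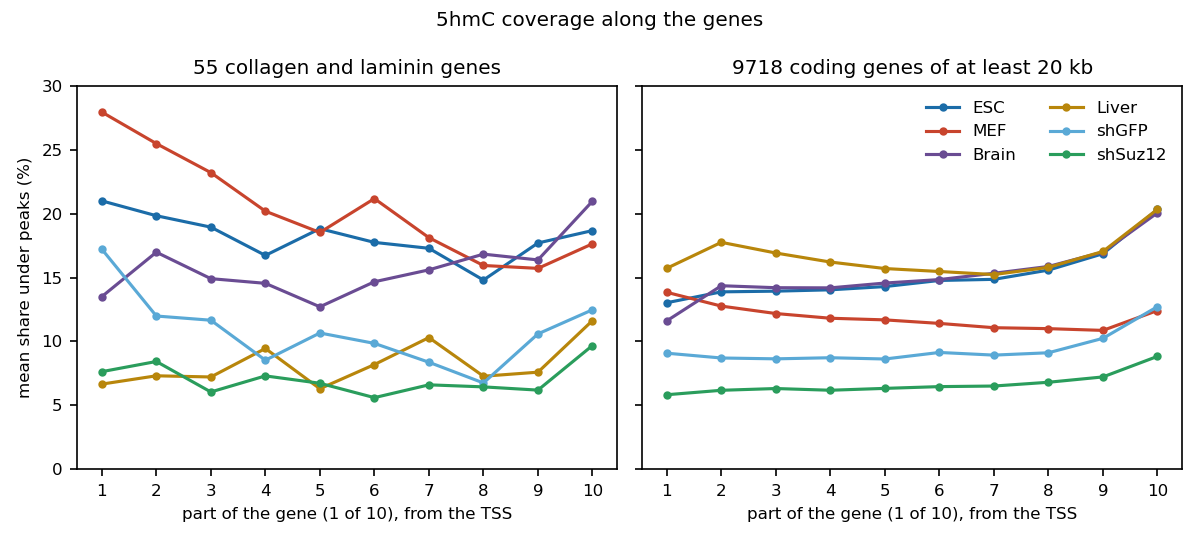
Mean share under 5hmC peaks (y axis, %) of each of 10 equal parts of the gene, from the TSS (part 1) to the gene's end (part 10), in the 6 libraries (lines), for the 55 collagen and laminin genes (left) and the 9718 protein-coding genes of at least 20 kb (right). MEFs fall from 28.0% to 17.6% on the left, and on the right from 13.8% to 12.4%.

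The other genes of the pathway, a list of 55 enzymes that modify or process collagen, collagen and laminin receptors, basement membrane partners and other matrix proteins, were counted in the same way. MEFs were highest in 24 of them (12.7% of all protein-coding genes). Over ESCs 17 were called higher and 11 lower (12.1% and 28.1% of all genes), over brain 14 and 2 (12.8% and 16.5%), and over liver 28 and 8 (19.4% and 26.5%). The medians were 0.15, 0.41 and 1.10. By group, MEFs were highest in 7 of 14 other matrix proteins, 10 of 22 modifying and processing enzymes, 5 of 14 receptors and 2 of 5 basement membrane partners. The ends of the list were Dcn and Leprel1, with mean ratios of 3.53 and 3.32, and Itga7 and Agrn, with -1.64 and -1.62. Dcn, the fibril-binding proteoglycan decorin, had 5295 bp in MEFs and none in ESCs, brain or liver, with 192 bp in shGFP and 393 bp in shSuz12. Leprel1, a prolyl 3-hydroxylase of collagen, had 18474 bp in MEFs, 524 bp in ESCs, 5391 bp in brain, 878 bp in liver, 548 bp in shGFP and 2244 bp in shSuz12. Itga7, a laminin receptor of muscle, had 2233 bp in MEFs and 10038 bp in ESCs, and Agrn, a basement membrane proteoglycan, 4335 and 17368 bp.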

How the data were processed

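GLIB-Seq gave 6 libraries of 5hmC, 1 per condition. Reads were aligned by the authors to mm9 using Bowtie 0.12.7, which kept uniquely mapped reads, duplicates were collapsed, and each library was passed on its own to MACS 1.4.1 for peak calling. CASAVA 1.8 is named in the submitters' processing notes. The deposited score is the value MACS wrote for a peak, and the deposited start and end are its bounds. Neither the cutoff nor the control used per library is given in the sources used here. Peak lists hold no read counts, so depth is unknown, and deeper sequencing or a looser cutoff would each lengthen a list.

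Peaks were set against GENCODE M1 on NCBIM37, which holds 22367 protein-coding genes outside the mitochondrial genome. The 1 to 3 mitochondrial peaks per list were left out. A gene's span runs from the start to the end of its record, the TSS is its 5′ end, and an overlap of 1 bp counts as a peak. No p-values were computed. The members, the pathway list and the alternatives were chosen with earlier results of these data known. The members given in full are the chains of types I, III, V and VI (Col1a1, Col1a2, Col3a1, Col5a1, Col5a2, Col6a1, Col6a2, Col6a3), Col4a1, Col4a2, Lama1, Lamb1 and Lamc1, those with a TSS peak in MEFs alone of the 4 cell types, the 5 highest and 5 lowest by the mean of the 3 MEF ratios, and the 3 largest falls and rises in covered bp from shGFP to shSuz12. Other members named were chosen after their values were seen. The steps were tested on simulated peaks. Python 3.11.15, numpy 2.4.6, pandas 2.3.3 and matplotlib 3.10.9 were used.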

Additional observations from a re-analysis of the deposited data

How the results depend on the processing

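No paired analysis was possible because there is a single library per condition. Of 207 values under other settings, 156 stayed close to the main value, and 51 moved. Close meant within 1.5 times for counts and within 0.1 for medians. For shares of the spans and their ratios to protein-coding spans it meant inside an exact binomial interval. That interval was taken on the number of peaks in the 55 genes, with peaks treated as independent. Some of the 156 values could not move. The ESC and liver lists begin at a score of 80, and liver, the shortest list, is unchanged at equal numbers of peaks. Leaving out Col4a3bp and the genes on chromosome X, none with a TSS peak, could not change the TSS counts. The median log2 ratios of MEFs kept their sign, but at a score of at least 80 the share of the spans covered was 8.95% in MEFs and 9.40% in ESCs, which turns their order, and the median of shSuz12 over shGFP went from 0.00 to -0.44 without scaling. The median log2 ratio of MEFs ranged from 0.35 to 0.98 over ESCs, 0.46 to 1.48 over brain and 1.54 to 3.11 over liver. MEFs were highest in 25 to 27 of the 55 genes, with 10.9% to 19.4% of protein-coding genes under the same settings. Of the 55, 23 genes had MEFs highest both as deposited and at a score of at least 80. Those called higher in MEFs numbered 19 to 25 over ESCs, 20 to 28 over brain and 32 to 40 over liver. Under the same settings 7.77% to 20.3%, 7.94% to 16.8% and 12.7% to 30.4% of protein-coding genes were called, respectively. The MEF ratio to protein-coding spans stayed between 1.38 and 1.47. The autosomal chains alone (52 genes, a choice made after seeing the data) gave 28 with MEFs highest. For every move below the cause was not tested. Shares of all protein-coding genes under the same setting, which move too, are in brackets. At a score of at least 80 the TSS count was 4 in brain and 6 in shSuz12, and 5 genes were called lower in MEFs than in brain, 6 higher and 18 lower in shSuz12. With the 50% of peaks of highest score the TSS count was 8 in brain (11.6%), 3 in liver (18.4%) and 12 in shSuz12 (12.3%). There, 2 genes were lower in MEFs than in brain (18.2%) and 5 higher in shSuz12 (11.3%). Windows of 2 kb on each side gave 33 in brain (32.3%) and 38 in MEFs (42.1%), and of 500 bp 13 in brain (11.5%) and 6 in liver (17.3%). Any transcript start gave 35 in brain (34.9%), 40 in MEFs (40.6%) and 18 in liver (39.9%), and peak midpoints 10 (10.2%), 15 (19.6%) and 6 (14.8%). Midpoints in place of bp gave 4 genes lower in MEFs than in ESCs (23.7%), 2 lower than in brain (14.3%) and 0 higher in shSuz12 (3.61%). Without scaling, 2 were lower in MEFs than in brain (19.9%) and 1 higher in shSuz12 (4.97%). Equal numbers of peaks gave 2 lower in MEFs than in brain (20.1%), and a pseudocount of 1000 bp gave 3 lower in shSuz12 (3.90%).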
